A study of Mus musculus with 8 samples.

Results

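The genes described here are 5 targets of Notch signalling, *Hey1*, *Hey2*, *Heyl*, *Hes1* and *Nrarp*. They were taken by symbol from a table of 53465 genes in embryonic mouse heart ventricles, and all 5 were among the 14451 genes that passed the filter on low counts and were tested. Polyadenylated RNA was sequenced from 8 ventricle samples at embryonic day 9.5 (E9.5), 4 from wild-type embryos (WT) and 4 from embryos labelled Nrg-1flox;Tie2-Cre (KO). In the KO embryos a floxed allele of *Nrg1*, the gene for the growth factor neuregulin 1 that the endocardium sends to the myocardium, is recombined by Cre under the *Tie2* promoter, which is active in endothelial cells including the endocardium and also in blood cells. The labels give no alleles for WT beyond that name, and they do not say whether a sample was 1 embryo or a pool, so the p-values measure the spread between these samples only. The comparison asks how each of the 5 genes differs between KO and WT ventricles, and whether *Hey2*, known for its place in the compact wall, differs from the genes known from atrium or endocardium.

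Notch is a cell surface receptor that is cut when a neighbouring cell presents a Delta or Jagged ligand. The freed intracellular domain enters the nucleus, binds the DNA-binding protein RBPJ and switches on target genes, among them the Hey and Hes genes and *Nrarp*. Hey and Hes proteins are basic helix-loop-helix repressors that bind E-box or N-box letters in DNA, whereas Nrarp is a small ankyrin repeat protein that binds the Notch complex and dampens it. In the developing heart *Hey2* marks the compact ventricular myocardium, *Hey1* the atrial myocardium and the endocardium, and *Heyl* vessel walls and cushion mesenchyme, while *Hes1* is used in many tissues.

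The members lie on separate chromosomes of build GRCm38. *Hey2* (ENSMUSG00000019789) spans bases 30832359 to 30842801 of chromosome 10 (minus strand), and *Hey1* (ENSMUSG00000040289) spans 8663359 to 8667256 of chromosome 3 (minus strand). *Heyl* (ENSMUSG00000032744) spans 123233556 to 123249875 of chromosome 4 (plus strand), and *Hes1* (ENSMUSG00000022528) spans 30064384 to 30067796 of chromosome 16 (plus strand). *Nrarp* (ENSMUSG00000078202) is a gene of 1 exon at 25180758 to 25183339 of chromosome 2 (plus strand), and the antisense gene *Gm38287* overlaps that exon. No annotated gene overlaps the other 4 members. The exons of the members cover 4593 bases for *Hey2*, 3265 for *Hey1*, 5113 for *Heyl*, 2037 for *Hes1* and 2582 for *Nrarp*.

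The promoters of *Hey2* and *Nrarp*, the 2 members matched in the RefSeq promoter table of GRCm38.p6, are shown because both genes are known as targets of RBPJ and because their mean levels differed in opposite directions. Each sequence runs on the gene's own strand from 250 bases before the start site to base 3 after it, and capitals mark the motif letters found. The *Hey2* sequence lies at chr10:30842781-30843033 (minus strand) and that of *Nrarp* at chr2:25180508-25180760 (plus strand).
Hey2: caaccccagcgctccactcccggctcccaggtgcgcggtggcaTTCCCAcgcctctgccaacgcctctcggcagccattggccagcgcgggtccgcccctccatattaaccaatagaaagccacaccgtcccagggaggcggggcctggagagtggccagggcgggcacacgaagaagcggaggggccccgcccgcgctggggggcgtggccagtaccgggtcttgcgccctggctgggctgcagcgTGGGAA
Nrarp: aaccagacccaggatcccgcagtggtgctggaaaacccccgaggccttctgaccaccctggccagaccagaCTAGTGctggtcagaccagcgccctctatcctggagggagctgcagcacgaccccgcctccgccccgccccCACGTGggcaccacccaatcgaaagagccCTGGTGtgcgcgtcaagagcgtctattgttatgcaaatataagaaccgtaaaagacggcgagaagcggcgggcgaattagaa

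Both strands were searched for the RBPJ core TGGGAA and its longer form GTGGGAA, which contains it, for the E-box CACGTG, for the N-box CACNAG and for the related site CACGCG. The *Hey2* promoter held the RBPJ core at 2 places, on the strand opposite to the gene from -207 to -202 and on the gene's own strand from -3 to 3, counted from the start site with no position 0, and both matches extended to GTGGGAA. The start site is that of the promoter table. The *Hey2* span given above begins upstream of it, at base 30842801, so the match from -3 to 3 lies inside that span. The windows searched were 300 bases long (250 before and 50 after the start), of which the stretch printed above leaves out the last bases. Of 32851 promoters searched over the same window, 25.6% held TGGGAA at least once and 3.79% at 2 or more places, and for GTGGGAA these shares were 6.38% and 0.256%. The *Nrarp* promoter held CACGTG from -108 to -103, letters present in 7.15% of promoters, and CACNAG on the strand opposite to the gene from -179 to -174 and from -79 to -74, letters present in 42.5% of promoters and at 2 or more places in 11.3%. TGGGAA was not found in this window of *Nrarp*, and CACGCG, present in 9.27% of promoters, was found in neither. GC content was 71.1% for the *Hey2* sequence and 60.9% for that of *Nrarp*. These matches describe the letters of the windows and are not measured binding.

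Total expected counts ranged from 11852506 to 14360427 per sample. The deleted gene was checked first: *Nrg1* was at 60.74, 58.56, 70.86 and 71.54 expected counts in KO replicates 1 to 4 and at 156.22, 130.91, 121.05 and 173.25 in WT, and fell by 1.07 on the log2 scale (SE 0.14, adjusted p = 0.00268, quasi-likelihood test in edgeR, Benjamini-Hochberg adjusted). Hemoglobin genes took 1.93% to 6.26% of the counts in KO and 0.671% to 0.799% in WT, with the highest share in KO replicate 1. This sample also stood apart in *Heyl*, and the members' values that change without it are given both ways.

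None of the 5 members passed the test between KO and WT: 0 of 5 were called higher and 0 of 5 lower at a false discovery rate (FDR) of 0.05 by edgeR's quasi-likelihood test, whereas 8.62% of all genes tested were called, 5.11% higher and 3.50% lower in KO. At an unadjusted p under 0.05, 1 member was counted by edgeR (*Hey2*), 1 by DESeq2 (*Hey2*) and 2 by limma-voom (*Hey2* and *Nrarp*), and DESeq2 and limma-voom also called 0 of 5 after adjustment. *Hey2* was the 1 member of 5 whose KO and WT values did not overlap, a share close to the 19.0% of all genes tested that did not overlap. *Hey1* and *Heyl* had nearly equal means in both genotypes, and *Hes1* and *Nrarp* had lower means in KO with overlapping samples. In bulk tissue, fewer cells that use a gene and less RNA per cell cannot be told apart.

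**Figure D1:**
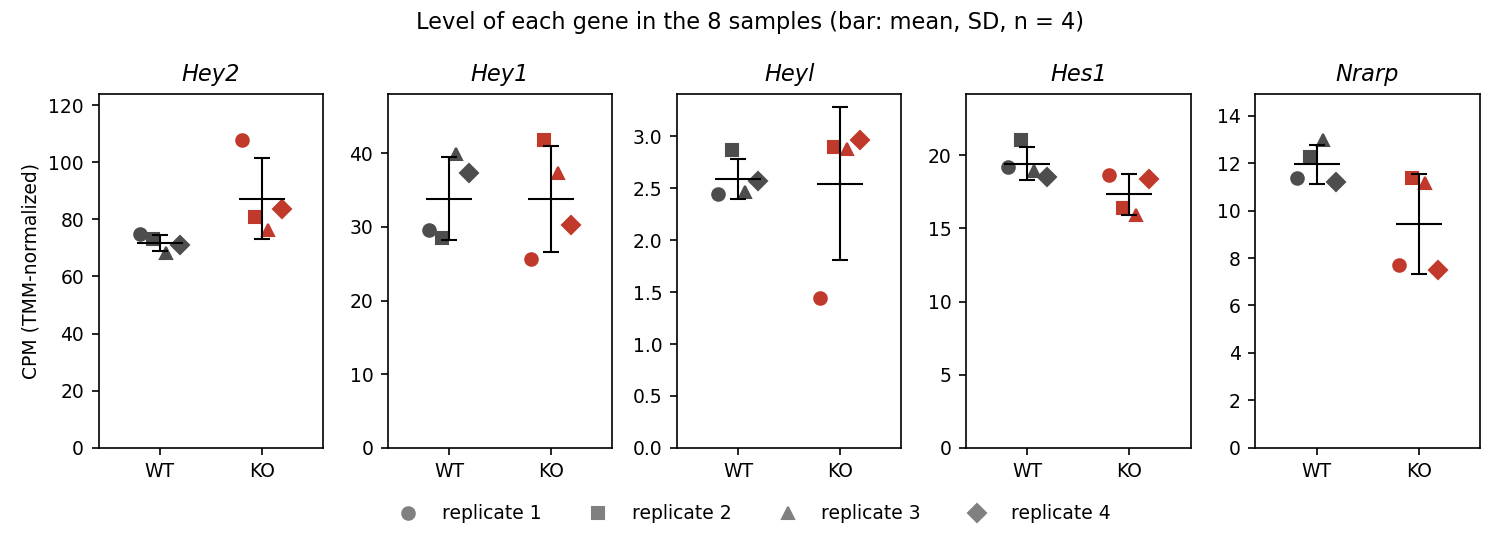
Level of each gene in CPM (y axes from 0) in the 4 WT and 4 KO samples. Symbols mark the replicate number, for which the labels name no pairing, and bars give the mean and SD. The KO samples of *Hey2* (76.2 to 108 CPM) all lie above WT (68.1 to 74.7 CPM), and KO replicate 1 is the highest for *Hey2* and the lowest for *Hey1* and *Heyl*.

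*Hey2*, the repressor of the compact wall, had the highest level per exon length of the members in every sample. In CPM (counts scaled by the library total, with TMM normalization) it was at 108, 80.9, 76.2 and 83.6 CPM in KO replicates 1 to 4 and 74.7, 73.1, 68.1 and 71.2 CPM in WT replicates 1 to 4. The lowest KO sample lay just above the highest WT sample, and KO replicate 1 lay well above the other KO samples. The means were 87.1 ± 14.1 CPM in KO and 71.8 ± 2.83 CPM in WT (SD, n = 4 each), a log2 fold change of 0.28 (SE 0.10) or 1.21-fold, with a 95% interval of 1.04- to 1.42-fold. The unadjusted p was 0.0216 and the adjusted p was 0.126 over all genes (quasi-likelihood test in edgeR, Benjamini-Hochberg adjusted), so the difference did not pass the threshold. Over DESeq2, limma-voom and the other normalizations and filters tried, the adjusted p ran from 0.0777 to 0.140. Without KO replicate 1 the log2 fold change was 0.16, with an adjusted p of 0.0614 by the same edgeR test. The groups were already apart with all samples, so leaving out KO replicate 1 could not make them overlap.

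*Hey1*, the related repressor known from atrial myocardium and endocardium, had the same mean in both genotypes. It was at 25.7, 41.8, 37.3 and 30.3 CPM in KO replicates 1 to 4 and at 29.6, 28.4, 39.9 and 37.4 CPM in WT. Its samples spread widely in both groups and overlapped throughout. The means were 33.8 ± 7.20 CPM in KO and 33.8 ± 5.64 CPM in WT (SD, n = 4 each). The log2 fold change of 0.0014 (SE 0.16) had a 95% interval from -0.36 to 0.36, so these samples leave differences within that interval possible (adjusted p = 0.997, edgeR's quasi-likelihood test). The log2 fold change was 0.11 without KO replicate 1 (adjusted p = 0.612 by the same test). Its coefficient of variation within WT was 16.7%, beside 4.68% from counting alone.

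*Heyl*, the member known from vessel walls, had the lowest level, with 17 to 40 counts per sample. Its level was 1.44, 2.90, 2.88 and 2.97 CPM in KO replicates 1 to 4 and 2.44, 2.87, 2.47 and 2.57 CPM in WT. KO replicate 1 was low and the other 3 KO samples were just above the highest WT sample. The means were 2.55 ± 0.737 CPM in KO and 2.59 ± 0.194 CPM in WT (SD, n = 4 each). The log2 fold change was -0.018 (SE 0.24, 95% interval -0.54 to 0.51, adjusted p = 0.972 by edgeR's quasi-likelihood test), and it was 0.17 without KO replicate 1 and 0.03 without WT replicate 2. The direction of *Heyl* therefore rested on single samples. The WT mean count gave a counting coefficient of variation of 16.9%, above the 7.51% observed among the WT samples, so depth limits what can be said of this gene.

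*Hes1*, the Hairy-like repressor used in many tissues, had a slightly lower mean in KO. It was at 18.7, 16.4, 15.9 and 18.4 CPM in KO replicates 1 to 4 and at 19.2, 21.1, 18.9 and 18.5 CPM in WT. KO replicate 1 lay between WT samples, so the groups overlapped, while KO replicates 2 to 4 lay below every WT sample. The means were 17.3 ± 1.40 CPM in KO and 19.4 ± 1.13 CPM in WT (SD, n = 4 each), a log2 fold change of -0.17 (SE 0.087, 95% interval -0.36 to 0.03). The adjusted p was 0.270 (edgeR's quasi-likelihood test), and the log2 fold change stayed between -0.20 (without KO replicate 1) and -0.12 with any 1 sample left out. Within WT its coefficient of variation of 5.82% was close to the 6.18% that counting gives.

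*Nrarp*, the feedback inhibitor of the Notch complex, had a lower mean in KO without passing the test. Its level was 7.72, 11.4, 11.1 and 7.50 CPM in KO replicates 1 to 4 and 11.4, 12.3, 13.0 and 11.2 CPM in WT. KO replicates 1 and 4 were low, whereas KO replicates 2 and 3 were next to the lowest WT samples. The means were 9.43 ± 2.11 CPM in KO and 12.0 ± 0.820 CPM in WT (SD, n = 4 each), a log2 fold change of -0.34 (SE 0.16, 95% interval -0.68 to 0.01). The unadjusted p was 0.0559 and the adjusted p 0.214 (edgeR's quasi-likelihood test), and without KO replicate 1 the log2 fold change was -0.25 (adjusted p = 0.27). Because the library kit does not mark strand, reads of *Nrarp* and of the antisense *Gm38287* cannot be told apart, and 15.29 expected counts in KO replicate 1 and 5.78 in WT replicate 1 were assigned to *Gm38287*. Summing both genes, an alternative added after seeing the data, gave 106, 157, 155 and 91 counts in KO and 155, 171, 158 and 166 in WT, with a log2 fold change of -0.30 and an adjusted p of 0.215.

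**Figure D2:**
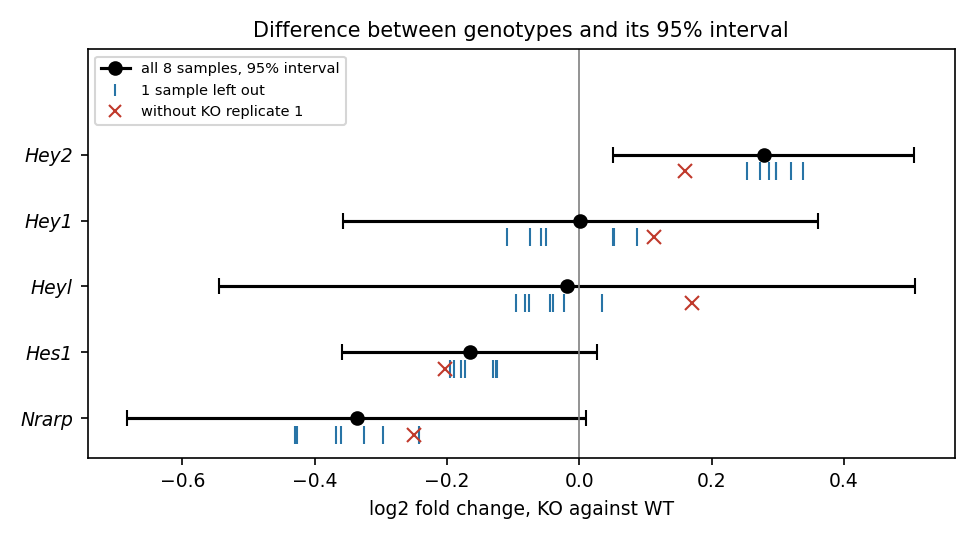
Log2 fold change of each gene, KO against WT (x axis), with all 8 samples (circle, 95% interval) and with 1 sample left out (ticks, cross for KO replicate 1). The interval of *Hey2* (0.05 to 0.51) lies above 0 before adjustment, those of the other genes include 0, and the cross for *Heyl* lies on the other side of 0 from its circle.

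Over all 4 samples of a genotype, the members had larger coefficients of variation in KO than in WT, with KO values of 16.2% for *Hey2*, 21.3% for *Hey1*, 29.0% for *Heyl*, 8.06% for *Hes1* and 22.4% for *Nrarp*. The corresponding WT values were 3.95%, 16.7%, 7.51%, 5.82% and 6.86%, and this difference in spread was not tested. Without KO replicate 1 the KO values were 4.68% for *Hey2*, 1.63% for *Heyl*, 7.82% for *Hes1* and 21.7% for *Nrarp*, and that of *Heyl* was then below WT, as was that of *Hey1* by a small margin. KO replicate 1 had the highest *Hey2* and the lowest *Hey1* and *Heyl* of all 8 samples, but a *Hes1* level above the other KO samples.

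Levels of different genes were compared per length, in CPM per kilobase of exon. In WT, *Hey2* stood at 15.6 ± 0.617 CPM per kilobase, *Hey1* at 10.4 ± 1.73, *Hes1* at 9.53 ± 0.555, *Nrarp* at 4.63 ± 0.318 and *Heyl* at 0.506 ± 0.0380 (SD, n = 4). In KO the levels per kilobase were 19.0 ± 3.08 for *Hey2*, 10.3 ± 2.21 for *Hey1*, 8.50 ± 0.685 for *Hes1*, 3.65 ± 0.818 for *Nrarp* and 0.498 ± 0.144 for *Heyl*. *Hey2* was above every other member in 4 of 4 KO and 4 of 4 WT samples, *Nrarp* below *Hey1* and *Hes1* in all of these, and *Heyl* lowest in all. *Hey1* and *Hes1* were neighbours that did not separate, with *Hey1* the higher in 3 of 4 KO and 2 of 4 WT samples. The order was thus shared by both genotypes.

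To compare *Hey2* directly with the other members, the log2 ratio of its CPM to theirs was taken within each sample (prior count 2) and its difference between genotypes was tested, two-sided, by exact permutation of the sample labels for each of 4 ratios (70 relabellings, for which p can be no lower than 0.0286). The ratio of *Hey2* to *Hes1*, the broadly used repressor, was 2.52, 2.30, 2.25 and 2.18 in KO replicates 1 to 4 and 1.95, 1.79, 1.84 and 1.93 in WT. Every KO sample lay above every WT sample, as for *Hey2* alone. The mean log2 ratio was 2.31 ± 0.149 in KO and 1.88 ± 0.0777 in WT (SD, n = 4 each), a difference of 0.43, with exact p = 0.0286, the smallest possible, and 0.0571 adjusted over the 4 ratios. The difference was 0.36 without KO replicate 1 and lay between 0.36 and 0.48 with any 1 sample left out.

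The ratio of *Hey2* to *Nrarp*, the feedback inhibitor, was 3.78, 2.82, 2.76 and 3.45 in KO replicates 1 to 4 and 2.70, 2.56, 2.38 and 2.65 in WT. Again the groups did not overlap, although KO replicates 2 and 3 came close to WT replicate 1. The mean log2 ratio was 3.20 ± 0.498 in KO and 2.57 ± 0.141 in WT (SD, n = 4 each), a difference of 0.63 (exact permutation p = 0.0286, adjusted 0.0571). Without KO replicate 1 the difference was 0.44 with the same p, the smallest possible for 3 against 4 samples. Leaving out a sample could not make the separated groups overlap. Omitting WT replicate 1, 2, 3 or 4 gave differences of 0.67, 0.63, 0.56 and 0.65 with exact p of 0.0857, 0.143, 0.143 and 0.114. Neither ratio passed 0.05 after adjustment over the 4 ratios, a level at which this design needs more than 2 ratios at its smallest p.

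The ratios of *Hey2* to its nearest relatives overlapped between genotypes. For *Hey1*, the log2 ratio ran from 0.95 to 2.06 in KO and from 0.77 to 1.36 in WT, with a difference of 0.28 (exact permutation p = 0.400, adjusted 0.533). For *Heyl*, it ran from 4.66 to 6.08 in KO and from 4.60 to 4.85 in WT, with a difference of 0.34 (exact permutation p = 0.543, adjusted 0.543). In both ratios KO replicate 1 was the highest sample, and without it the differences were 0.05 for *Hey1* and -0.0057 for *Heyl*. A difference between *Hey2* and these 2 genes in their response was therefore not shown, nor was its absence.

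**Figure D3:**
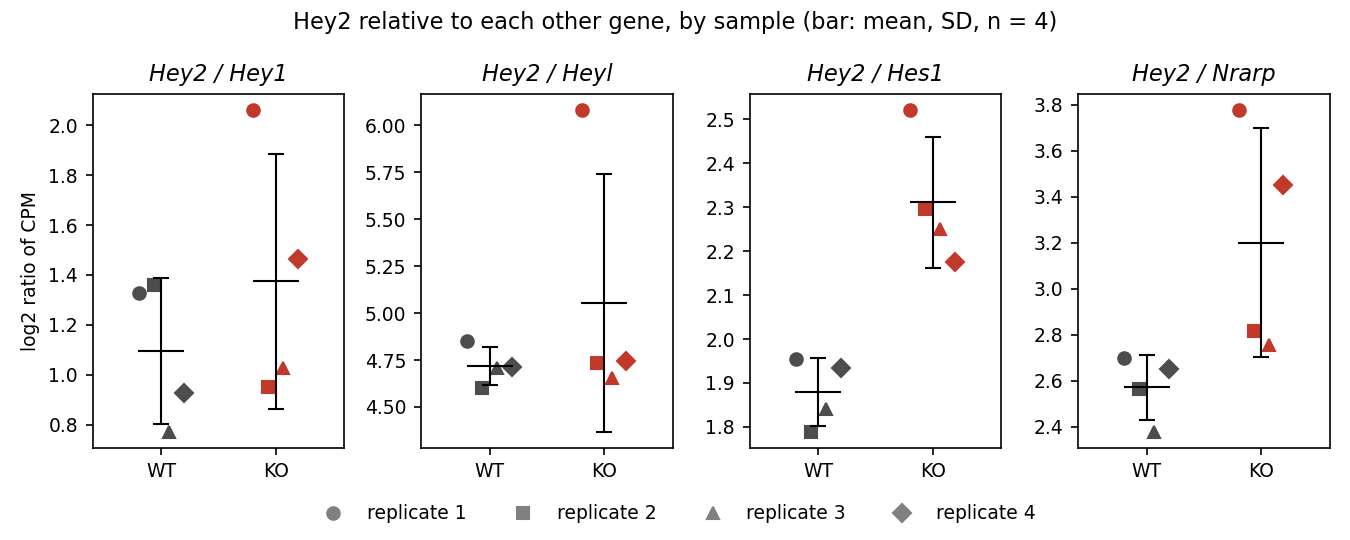
Log2 ratio of the CPM of *Hey2* to that of each other gene (y axes, each with its own range) in the 4 WT and 4 KO samples; bars give the mean and SD. KO lies above WT in every sample for *Hes1* (2.18 to 2.52 against 1.79 to 1.95) and *Nrarp* (2.76 to 3.78 against 2.38 to 2.70), and overlaps WT for *Hey1* and *Heyl*.

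The markers of the tissue were read beside these values. Of 14 endocardial and endothelial markers all were tested, 0 rose and 1 fell (*Tek*, log2 fold change -0.34, adjusted p = 0.0310 by edgeR), and their summed level was 1016 to 1086 CPM in KO and 1126 to 1215 CPM in WT. The 12 cardiomyocyte markers summed to 33419 to 36342 CPM in KO and 34414 to 37148 CPM in WT, with 0 called by edgeR (2 at an unadjusted p under 0.05), 2 lower by DESeq2, 0 by limma-voom, and 2 higher and 1 lower without KO replicate 1. Of 5 compact wall markers, 2 fell, *Tbx20* (-0.31, adjusted p = 0.0165) and *Hand1* (-0.62, adjusted p = 0.0169), while *Nfia* (-0.20, adjusted p = 0.457), *Mycn* (0.02, adjusted p = 0.927) and *Fzd1* (0.62, adjusted p = 0.189, and 0.22 with adjusted p = 0.157 without KO replicate 1) did not pass. The list summed to 500.1 to 546 CPM in KO and 608 to 621 CPM in WT, most of it *Tbx20* (mean 304 CPM in KO and 378 CPM in WT), whereas *Hey2* had its higher values in KO. Of 8 trabecular markers, 5 fell, among them *Slit2* (-1.72, adjusted p = 0.00119), *Irx3* (-1.43, adjusted p = 0.00471) and *Bmp10* (-0.57, adjusted p = 0.0159), and 1 rose (*Nppb*, 0.94, adjusted p = 0.0218), with a median of -0.52 and overlapping sums (1492 to 1848 CPM in KO, 1320 to 1729 CPM in WT). For 9 atrial markers tested of 10, 0 were called by edgeR (2 at an unadjusted p under 0.05, and 1 lower by DESeq2 and by limma-voom), and the sums overlapped (5262 to 6616 against 6075 to 6512 CPM), as did the levels of *Hey1*. Of 7 vessel wall (mural) markers, 6 were tested and 0 called by edgeR (4 at an unadjusted p under 0.05, and 1 lower by DESeq2). Their sums overlapped (2598 to 3451 CPM in KO, 2961 to 3272 CPM in WT), most of it *Acta2* (mean 2782 CPM in KO and 2776 CPM in WT). All 11 erythroid markers rose (summed 19884 to 69027 CPM in KO and 6710 to 8140 CPM in WT), and 2 of 7 epicardial markers tested rose (summed 211 to 350.1 against 135 to 208 CPM), without overlap in either sum. Without KO replicate 1, edgeR called 2 endocardial and endothelial markers lower, 2 compact wall markers lower, 5 trabecular markers lower and 1 higher, 1 atrial marker lower, all 11 erythroid markers higher and 3 epicardial markers higher. In that fit 2523 genes were called in all, in place of 1245. The part of these cell types in the levels of the 5 members was not tested.

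Other genes of the Notch pathway were read from the same fit across all genes, whose median log2 fold change was -0.0014. Among the ligands that start the signal, 5 of 7 were tested and 1 fell. *Jag1*, a Jagged ligand of the endocardium and outflow tract, was at 45.1, 58.8, 53.8 and 42.7 CPM in KO and at 69.5, 70.3, 74.2 and 71.4 CPM in WT, and fell by 0.51 on the log2 scale (SE 0.097, adjusted p = 0.0124, edgeR's quasi-likelihood test). *Jag1* also passed with any 1 sample left out, at adjusted p of 0.00383 to 0.0460. Beside it, 5 of 8 outflow and second heart field markers fell, among them *Sema3c* (-0.44, adjusted p = 0.00414), *Rspo3* (-0.88, adjusted p = 0.00728) and *Mef2c* (-0.42, adjusted p = 0.00718), with sums of 201 to 232 CPM in KO and 286 to 315 CPM in WT, and their part in the level of *Jag1* was not tested. *Dll1* (-0.59, adjusted p = 0.221, and -0.37 with adjusted p = 0.187 without KO replicate 1), *Dll4* (-0.04, adjusted p = 0.903, and -0.23 with adjusted p = 0.149 without KO replicate 1), *Jag2* (-0.04, adjusted p = 0.884) and the non-canonical *Dlk1* (-0.08, adjusted p = 0.692) did not pass. None of the 4 receptors passed by edgeR, DESeq2 or limma-voom, and 0 had an unadjusted p under 0.05: *Notch1* was at -0.05, *Notch2* at 0.13, *Notch3* at 0.17 and *Notch4* at -0.03 on the log2 scale, with adjusted p of 0.740, 0.321, 0.368 and 0.867.

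Between the receptor and its targets, 3 of 53 tested genes were called (5.66%, beside 8.62% of all genes tested). Of 18 tested genes for ligand and receptor processing, 1 fell (*Psen2*, a catalytic subunit of gamma-secretase, by 0.49, adjusted p = 0.0195). The nuclear complex, with *Rbpj* at a log2 fold change of 0.05 (adjusted p = 0.813), had 0 of 15 genes called by edgeR, DESeq2 or limma-voom, 1 at an unadjusted p under 0.05 and 1 called lower without KO replicate 1. Of 9 tested inhibitors and turnover genes, 1 rose (*Dtx3*, of the Deltex family, by 0.38, adjusted p = 0.0152). Among 11 tested cofactors of Hey and Hes proteins, 1 fell: *Id2*, a helix-loop-helix protein without a DNA-binding domain, by 0.52 (adjusted p = 0.0435). The median log2 fold changes of these 4 lists were -0.02, 0.06, -0.02 and -0.09. Without KO replicate 1, 1 processing gene was called higher and 2 lower, 2 inhibitors and turnover genes higher and 1 lower, and 2 cofactors lower. Calls over all genes also rose in that fit, to 2523 from 1245. The calls of *Psen2*, *Dtx3* and *Id2* were lost without WT replicate 1, at adjusted p of 0.0579, 0.0508 and 0.126, and without other samples too (KO replicate 3 and WT replicates 3 and 4 for *Psen2*, at 0.0548 to 0.0666; KO replicate 4 and WT replicate 4 for *Dtx3*, at 0.0503 and 0.0607; KO replicates 3 and 4 and WT replicates 2 to 4 for *Id2*, at 0.0541 to 0.107).

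Of the members' own relatives in the Hes and Hey-like family, 4 of 8 were tested and 0 were called by edgeR, DESeq2 or limma-voom, with 2 at an unadjusted p under 0.05 and 1 called higher without KO replicate 1. *Hes6* differed by -0.06 (adjusted p = 0.592) and *Hes7* by -0.47 (adjusted p = 0.331) on the log2 scale. *Bhlhe40*, a related repressor that also responds to low oxygen, was at 170.5, 25.3, 19.1 and 17.6 CPM in KO and at 12.0, 13.4, 17.9 and 11.6 CPM in WT (log2 fold change 2.08, SE 0.72, adjusted p = 0.107), and without KO replicate 1 its log2 fold change was 0.60 (adjusted p = 0.0335), past the threshold. *Bhlhe41* likewise stood highest in KO replicate 1, at 58.6 CPM (log2 fold change 1.02, adjusted p = 0.186, and 0.28 with adjusted p = 0.272 without that sample). *Hes2* and *Helt* had no count in any sample. The sample with the high *Bhlhe40* also had the highest *Hey2*. Of 12 hypoxia and stress markers, 4 rose in KO by edgeR, *Slc2a1* (0.54), *Trib3* (2.52), *Mt1* (3.66) and *Mt2* (3.86). The other 8 did not pass, among them *Vegfa* (0.88, adjusted p = 0.207), *Bnip3* (0.53, adjusted p = 0.315), *Ldha* (0.05, adjusted p = 0.638) and *Pgk1* (0.05, adjusted p = 0.799). The list's sums overlapped (6495 to 9995 CPM in KO, 5617 to 6645 CPM in WT). The part of these genes in the level of *Hey2* was not tested.

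Among 14 other genes described as Notch targets in endocardium or vessels, 2 rose and 1 fell, with a median log2 fold change of -0.06 (2 and 3 without KO replicate 1). *Sox17*, an endothelial transcription factor, rose by 1.03 (adjusted p = 0.00743, edgeR's quasi-likelihood test; 0.00248 to 0.0347 with any 1 sample left out). *Tagln*, a smooth muscle and early heart muscle gene, rose by 0.41 (adjusted p = 0.0125, and 0.0504 without WT replicate 1), and *Adgrg6*, an adhesion receptor of the endocardium, fell by 0.38 (adjusted p = 0.0357; 0.0768 to 0.115 without KO replicate 3 or WT replicate 1, 2 or 4). Of the genes that Hey or Hes factors are described as repressing in heart, 13 of 15 were tested and 1 rose and 1 fell, with a median of -0.07 (1 and 2 without KO replicate 1). *Cdkn1a*, a cell cycle inhibitor, rose by 0.72 (adjusted p = 0.0397), whereas *Tbx3*, a T-box factor of the atrioventricular canal, fell by 0.72 (adjusted p = 0.0334). Both calls were lost without KO replicate 4 or any 1 WT sample, at adjusted p of 0.0800 to 0.120 for *Cdkn1a* and 0.0668 to 0.101 for *Tbx3*. *Tbx2* and *Bmp2*, canal genes held out of chamber muscle by Hey factors, differed by -0.35 and -0.29 on the log2 scale (adjusted p of 0.291 and 0.305). Both genes and *Tbx3* are also among the 10 atrioventricular canal and cushion markers, so these lists are not separate. Those markers summed to 164 to 240 CPM in KO and 277 to 292 CPM in WT, with 1 called lower, *Tbx3* itself (3 without KO replicate 1).

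**Figure D4:**
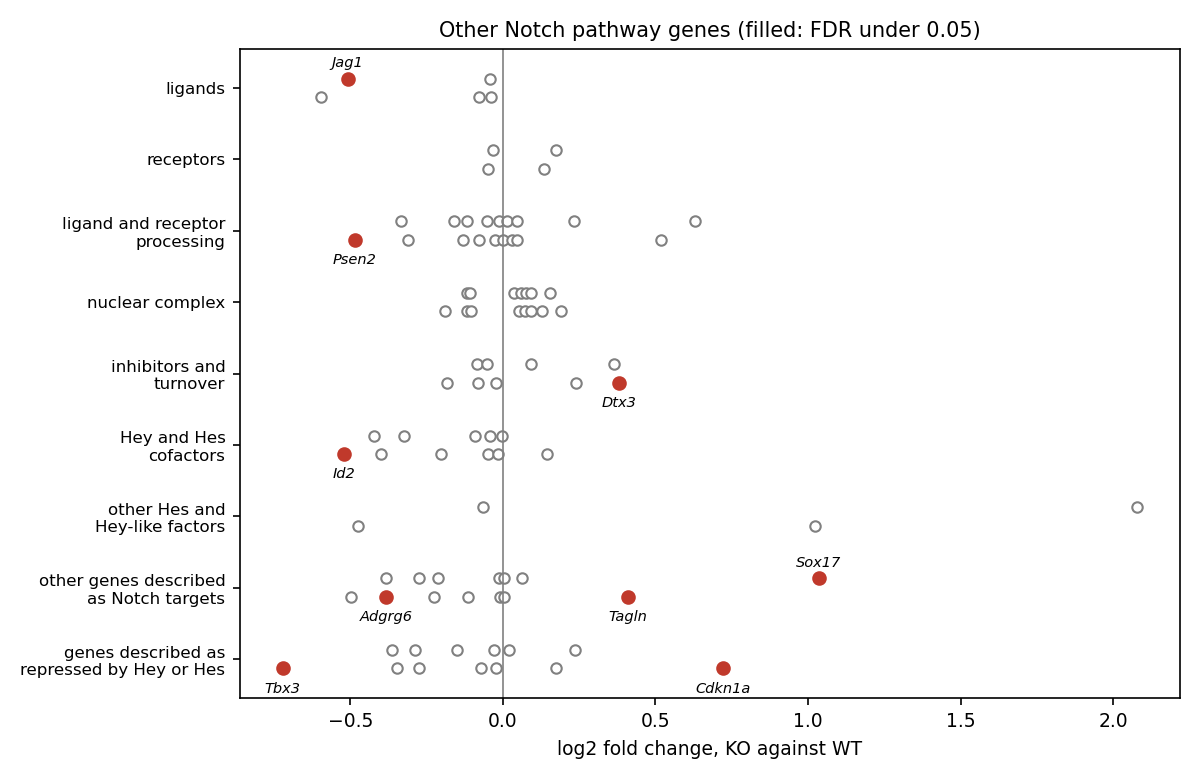
Log2 fold change of the other Notch pathway genes, KO against WT (x axis), by list (rows); filled points have FDR under 0.05 by edgeR, open points do not. The called genes are *Jag1* (-0.51), *Psen2*, *Dtx3*, *Id2*, *Adgrg6*, *Tagln*, *Sox17* (1.03), *Tbx3* and *Cdkn1a*, and the far right open point is *Bhlhe40* (2.08).

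Genes whose levels followed each member most closely over the 8 samples were taken as the 3 highest Pearson r of log2 CPM among all genes tested, as a description. For *Hey2* they were *Rps27a* (0.995), *Nrip1* (0.991) and *Eri1* (0.990), with r within genotypes of 0.993, 0.984 and 0.982. For *Heyl* they were *Arl10* (0.995), *Ptms* (0.994) and *Akt1* (0.993), and for *Hey1* they were *Kcnd1* (0.964), *Mzf1* (0.962) and *Casq1* (0.955). *Hes1* was followed by *Lrig1* (0.955), *Nefm* (0.949) and *Pdzrn3* (0.947). *Nrarp* was followed by *Pde9a* (0.981), the unnamed gene ENSMUSG00000091562 (0.966) and *Ephb2* (0.966). No gene appeared for more than 1 member. Without KO replicate 1, the r of the same genes over 7 samples ran from 0.955 to 0.977 for *Hey2* and from 0.947 to 0.955 for *Heyl*. The points of each correlation come from the same libraries.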

How the data were processed

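Heart ventricles from E9.5 mouse embryos were profiled as polyadenylated RNA in 60-base single reads on a HiSeq2500, from libraries of a kit that does not mark strand. The authors deposited one table of expected counts per gene, made with cutadapt and RSEM 1.3.1 on GRCm38 per the labels' processing notes, not scaled for depth or length. The aligner and the strand setting are not given in the sources used here. Symbols were matched for 53274 of 53465 genes, and expected counts were rounded to whole numbers. RSEM shares reads between overlapping genes, which touches *Nrarp*.

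Genes were filtered by filterByExpr and tested with edgeR 4.0.16 (TMM, quasi-likelihood test, Benjamini-Hochberg adjustment over 14451 genes, FDR 0.05) in R 4.3.3 for 4 KO against 4 WT samples. SE was the log2 fold change over the square root of F. Lengths are unions of GENCODE M21 exons, and motifs were matched with Python 3.11.15. The other settings tried were DESeq2 1.42.0, voom from limma 3.58.1, upper-quartile and median-ratio scaling, no filter or at least 10 counts in every sample, no hemoglobin or mitochondrial genes, a replicate block, prior count 0.5 for ratios and each sample left out. Counts of replicates differed beyond counting error (chi-square per degree of freedom of 3.77 or more).

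Named genes were the 5 members, genes of the Notch pathway lists with FDR under 0.05, all tested Notch ligands, receptors and *Rbpj*, the 3 most similar genes per member and *Nrg1*. Single genes of the Hes and Hey-like family, *Tbx2*, *Bmp2* and single genes of the cell type marker lists were named after their values were seen. The members and lists were chosen with earlier results of these data known.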

Additional observations from a re-analysis of the deposited data

Results flagged for a closer look

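In the KO group, the *Heyl* level of replicate 1 (1.44 CPM) lay far from the other 3 samples (2.88 to 2.97 CPM): the gap took 0.941 of the group's range, above Dixon's 95% critical value for 4 samples. The log2 ratio of *Hey2* to *Heyl* in the same sample, 6.08 against 4.66 to 4.75 in the others, had a gap of 0.936 of the range. These are 2 of 18 groups tested, chance flags about 1 in 20, and both rest on the 17 counts of *Heyl* in that sample.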

How the results depend on the processing

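The log2 fold changes of *Hey2*, *Hes1* and *Nrarp* kept their sign and stayed above an adjusted p of 0.05 under all alternatives and with each sample left out. *Hey1*, near 0, turned to -0.0146 with upper-quartile scaling, -0.0013 without a filter and -0.0101 with the replicate block, and ran from -0.11 to 0.11 with samples left out; *Heyl* ran from -0.10 to 0.17. Same-numbered KO and WT samples were no more alike than others (correlations from -0.0911 to 0.0187, mean -0.0164, beside a mean of 0.00559 for other pairs). The labels name no litter or batch, so a pairing by number can be neither shown nor excluded. With the replicate block 616 genes were called in place of 1245, and the paired ratios of *Hey2* to *Hes1* and *Nrarp*, with differences of 0.43 and 0.63, had exact p = 0.125, the smallest that 4 pairs allow. With samples left out, genes called ran from 509 (without WT replicate 1) to 2523 (without KO replicate 1), and the ratio differences from -0.0057 to 0.47 for *Heyl* and from 0.44 to 0.78 for *Nrarp*. Genes that did not pass also changed sign in this way: *Dll4* (-0.23 to 0.0498), *Jag2* (-0.0910 to 0.0689), *Dlk1* (-0.14 to 0.0023), *Notch4* (-0.0829 to 0.0401) and *Rbpj* (-0.0701 to 0.11). The cause was not tested. Of the called pathway genes, *Psen2*, *Dtx3*, *Id2*, *Adgrg6*, *Tbx3* and *Cdkn1a* missed 0.05 under the block (adjusted p of 0.0523 to 0.0853) and *Cdkn1a* also under limma-voom (0.0574). At 17 to 40 counts, depth limits *Heyl* most.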
